A study of Mus musculus with 8 samples.

Results

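Cells take up amino acids, sugars and monocarboxylates through membrane proteins of the solute carrier (Slc) families. The transporter genes examined here are those whose symbol begins with Slc1a, Slc2a, Slc3a, Slc5a, Slc6a, Slc7a, Slc16a, Slc36a, Slc38a or Slc43a, with the insulin-responsive glucose carrier Slc2a4 left out by the rule. The array held 126 probes for them, of 25697 probes in all, and these probes stood for 90 of 16593 genes. Signal was above background often enough to be tested for 68 of the probes and 57 of the genes, where a tested probe had a detection p-value below 0.05 on at least 4 of 8 arrays.

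RNA came from whole skin of the back of C57BL6 mice aged 10 weeks, and each mouse had an array of its own. The 4 Med1 knockout (KO) mice carried floxed Med1 alleles (MED1 fl/fl) together with a Cre recombinase driven by the keratin 14 (K14) promoter. The 4 control mice, labelled WT, carried the same floxed alleles, and the study's methods describe controls as Cre negative littermates. Med1 encodes a Mediator subunit, part of the coactivator machinery that bridges DNA-bound regulators and RNA polymerase. Because the K14 promoter acts in keratinocytes and related epithelia, the other cells of the skin keep Med1 by design, and the arrays read all of them together.

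The brightest Med1 probe read 9.05, 8.99, 8.92 and 9.10 (log2 normalized signal) in control mice 1 to 4 and 8.26, 7.80, 8.39 and 8.45 in KO mice 1 to 4. Its mean in KO skin was 57.9% of control (log2 change −0.79 ± 0.14, SE of the fit, adjusted p = 0.000649, limma), without overlap. Another probe fell by 0.69 (adjusted p = 0.00861), 1 more changed by −0.23 (adjusted p = 0.252), and the remaining probe was not above background. The position of the probes on the transcript, inside or outside the floxed exons, was not analysed here.

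Solute carriers divide the work by substrate and by driving force. Slc1, Slc6 and Slc38 proteins mostly draw neutral or acidic amino acids, neurotransmitters and osmolytes into the cell with the sodium gradient, whereas Slc7 light chains exchange one amino acid for another and most of them reach the membrane only when bound to a heavy chain, Slc3a2. Slc2 proteins let glucose and related sugars pass down their gradient, Slc5 proteins couple sugars and some monocarboxylates to sodium, and Slc16 proteins move lactate, pyruvate and related acids. In skin these carriers feed keratinocytes and the growing hair follicle, whose hair proteins are rich in cysteine.

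Of the 57 tested genes, 18 were higher and 24 were lower in KO skin after adjustment over all probes tested, and 15 were not called. That is 73.7% called, where 63.8% of all 10350 tested genes were called (29.4% higher and 34.4% lower). Counted by probe, 22 were higher and 27 lower, where 62.7% of all probes were called. KO and control mice did not overlap for 41 of the 57 genes (71.9%), against 60.1% of all genes. A change of at least 2-fold was seen for 11 higher and 5 lower genes (28.1%), against 17.3% of all genes. The median change was −0.21 on the log2 scale and that of all genes was −0.04. The shares called and not overlapping lay near the background, in which most genes of this tissue differed.

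Some of these genes were above background in only 1 group. A filter that needs 4 arrays lets such a gene in only through the group where it is higher, which was so for 5 genes detected only in KO skin and 1 only in control skin. Such a gene is given a bound, and the adjusted p beside it is that of the fitted change. That p-value does not test the bound and is no independent support, because the filter already chose the gene by its brighter group. Of the 51 genes detected in both groups, 13 were higher and 23 were lower (70.6% called), where 63.0% of all such genes were called (28.7% higher and 34.3% lower).

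**Figure D1:**
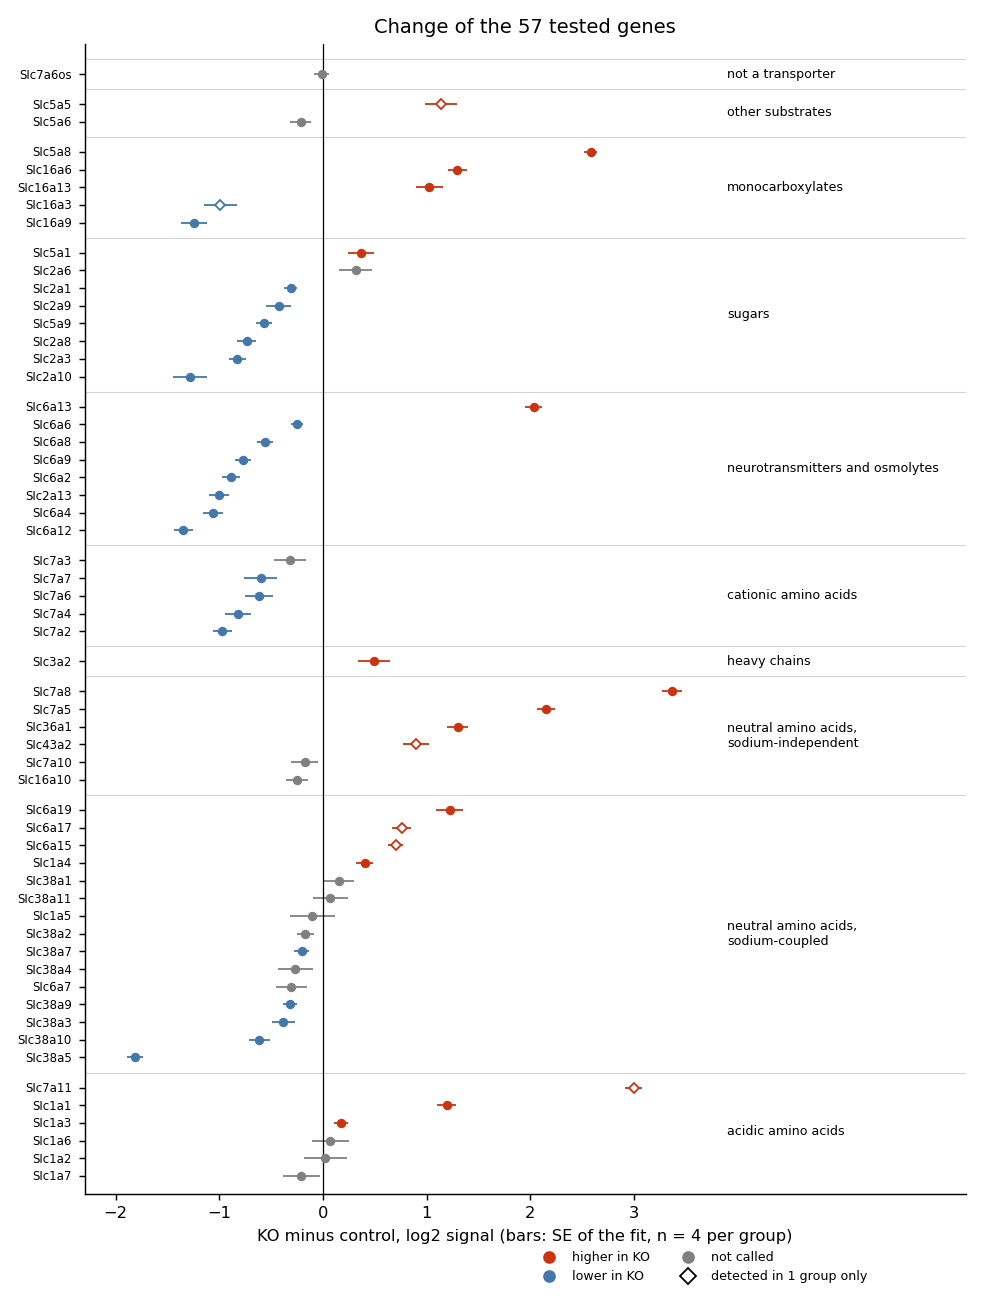
Change of each tested transporter gene, KO minus control on the log2 scale (x axis), with the SE of the fit as bars, grouped by substrate class, n = 4 mice per group. Red points are called higher, blue lower and grey not called, and open diamonds are genes detected in only 1 group, whose fitted change is no bound. Slc7a8 (3.37) lies farthest right and Slc38a5 (−1.82) farthest left.

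The gene with the largest increase, Slc7a8, is a sodium-independent carrier of neutral amino acids. Of 9 genes on the array 6 were tested, 4 were higher, none was lower and 2 were not called, with a median of 1.10 (0.95 with Slc43a2 at its bound). The share called was 66.7%, near the 63.8% of all tested genes. Of the 5 genes detected in both groups, 3 were higher. Slc7a8 (LAT2), which exchanges neutral amino acids of all sizes, and Slc7a5 (LAT1), which exchanges leucine and other large neutral amino acids for glutamine, were both much brighter in every KO mouse than in any control mouse.

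Slc7a8 read 7.50, 7.50, 7.78 and 7.50 in control mice 1 to 4 and 10.98, 11.11, 10.87 and 10.81 in KO mice 1 to 4. The KO mean was 10.3-fold that of control (log2 change 3.37 ± 0.10, adjusted p = 5.76e-09), and the groups lay far apart. A second Slc7a8 probe ran from 6.19 to 6.43 in control and from 8.98 to 9.53 in KO skin, a change of 2.91 ± 0.12 (adjusted p = 6.23e-08). The promoter of Slc7a8 is shown because this gene had the largest change of all transporters: the 250 bases before its start (chr14:54781887-54782136, minus strand, GRCm38.p6, RefSeq), with the GC box GGGCGG in capitals.
Slc7a8: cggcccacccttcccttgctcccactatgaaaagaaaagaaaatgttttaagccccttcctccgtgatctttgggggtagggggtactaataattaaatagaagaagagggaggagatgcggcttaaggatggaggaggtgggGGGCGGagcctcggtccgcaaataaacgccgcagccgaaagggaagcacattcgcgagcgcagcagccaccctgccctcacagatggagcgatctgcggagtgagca

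Slc7a5 read 9.46, 9.36, 9.65 and 9.37 in control and 11.56, 11.62, 11.71 and 11.56 in KO skin. This was a 4.44-fold difference (log2 change 2.15 ± 0.08, adjusted p = 3.4e-08) without overlap. Slc36a1, a proton-coupled carrier of small amino acids found on lysosomes, read 5.72, 5.37, 5.59 and 5.58 in control and 6.97, 6.88, 6.93 and 6.66 in KO skin, 2.46-fold higher (1.30 ± 0.10, adjusted p = 3.05e-06). Slc43a2, a carrier of large neutral amino acids, was not well above background in any control mouse and was detected in all KO mice, where it read 5.45 to 6.04. It was at least 1.51-fold higher in KO skin (adjusted p = 0.00018). Slc7a10, which carries alanine, serine and cysteine, changed by −0.18 (adjusted p = 0.255), and the aromatic amino acid carrier Slc16a10 by −0.25 (adjusted p = 0.0644).

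The heavy chain Slc3a2 (4F2hc), which these light chains need to reach the membrane, was slightly brighter in KO skin. It read 6.24, 6.14, 5.76 and 6.12 in control and 6.48, 6.28, 6.51 and 6.95 in KO skin, a 1.40-fold difference (0.49 ± 0.15, adjusted p = 0.0184) in which the lowest KO mouse lay just above the highest control mouse. Without control mice 1 and 3 the change was 0.43 and was no longer called (adjusted p = 0.0721). Of the 6 tested light chains known to pair with Slc3a2, 3 were higher (Slc7a5, Slc7a8, Slc7a11), 2 were lower (Slc7a6, Slc7a7) and 1 was not called (Slc7a10). Of all tested genes, 63.8% were called (29.4% higher and 34.4% lower). Slc7a11 was detected only in KO skin, so the filter let it in only through that group. A dimmer Slc7a7 probe changed by −0.19 and was not called.

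Among carriers of acidic amino acids, 6 of 7 genes were tested, 3 were higher and none was lower, with a median of 0.12. The share called was 50%, below the 63.8% of all tested genes. Of the 5 genes detected in both groups, 2 were higher. Slc7a11 (xCT), the light chain that imports cystine in exchange for glutamate, was not well above background in any control mouse (4.68, 4.63, 4.67 and 4.41) and was detected in every KO mouse (7.61, 7.62, 7.52 and 7.61). It was at least 5.49-fold higher in KO skin (adjusted p = 3.66e-09). Slc7a11 is a known target of the transcription factor ATF4, which binds C/EBP-ATF response elements, and its promoter is shown for the pair of such elements it holds. The 250 bases before the start (chr3:50443614-50443863, minus strand, GRCm38.p6, RefSeq) carry TGATGNAAN on both strands, in capitals, beginning 66 and 48 bases before the start.
Slc7a11: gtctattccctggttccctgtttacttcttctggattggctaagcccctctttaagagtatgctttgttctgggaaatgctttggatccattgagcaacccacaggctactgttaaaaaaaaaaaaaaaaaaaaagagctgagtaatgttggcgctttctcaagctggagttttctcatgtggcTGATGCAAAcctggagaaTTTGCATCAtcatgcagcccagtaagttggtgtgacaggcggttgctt

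Slc1a1 (EAAC1), a sodium-coupled importer of glutamate and cysteine, also rose. It read 7.25, 7.58, 7.46 and 7.47 in control and 8.60, 8.71, 8.73 and 8.49 in KO skin, 2.29-fold higher (1.19 ± 0.09, adjusted p = 3.04e-06). Its other probe rose by 0.70 (adjusted p = 0.000121). Slc1a3 (GLAST), a glutamate and aspartate importer, read 10.92, 10.93, 10.91 and 11.05 in control and 11.10, 11.13, 11.13 and 11.14 in KO skin. The difference was small (0.17 ± 0.06, adjusted p = 0.0393), and the call was lost when any mouse other than control mouse 4 was left out (adjusted p from 0.0269 to 0.0890 over the 8 fits). Slc1a2, Slc1a6 and Slc1a7 changed by 0.02, 0.07 and −0.21 and were not called.

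Sodium-coupled carriers of neutral amino acids moved in both directions. Of 19 genes 15 were tested, 4 were higher, 5 were lower and 6 were not called, with a median of −0.17. The share called was 60%, near the 63.8% of all tested genes. Of the 13 genes detected in both groups, 2 were higher and 5 were lower. Slc38a5 (SNAT5), which carries glutamine, asparagine and histidine, showed the largest decrease of all transporters. It read 8.09, 7.98, 8.10 and 8.07 in control and 6.11, 6.23, 6.37 and 6.27 in KO skin, 3.52-fold lower (−1.82 ± 0.08, adjusted p = 5.08e-08), with every KO mouse well below every control mouse. The promoter of this gene is shown as that of the carrier that fell most (250 bases before the start, chrX:8271131-8271380, plus strand, GRCm38.p6, RefSeq), with a GC box and the E-box CACGTG in capitals.
Slc38a5: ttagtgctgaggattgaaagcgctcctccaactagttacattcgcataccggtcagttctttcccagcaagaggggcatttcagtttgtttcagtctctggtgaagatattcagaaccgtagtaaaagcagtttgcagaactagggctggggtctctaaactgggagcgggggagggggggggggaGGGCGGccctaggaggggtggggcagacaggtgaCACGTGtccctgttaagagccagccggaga

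Of the 9 tested Slc38 genes none was higher, 5 were lower and 4 were not called (55.6% called, against 63.8% of all tested genes). Slc38a10 fell by 0.62 (adjusted p = 0.000517), Slc38a3 by 0.39 (adjusted p = 0.0123), the lysosomal arginine sensor Slc38a9 by 0.32 (adjusted p = 0.00241, and 0.46 by its other probe) and the lysosomal glutamine exporter Slc38a7 by 0.21 (adjusted p = 0.0261). Slc38a2 (SNAT2), the carrier that cells induce when amino acids are short, was bright in both groups, at 12.48, 12.60, 12.44 and 12.59 in control and 12.29, 12.53, 12.25 and 12.36 in KO skin. The groups overlapped and the change of −0.17 ± 0.08 was not called (adjusted p = 0.101), although it was called without KO mouse 2 (−0.23, adjusted p = 0.0349). A second Slc38a2 probe fell by 0.49 (adjusted p = 0.00605) and the dimmest probe changed by 0.10 (adjusted p = 0.656). Slc38a1 and Slc1a5 (ASCT2), both glutamine carriers, lay near background on several arrays. Slc38a1 changed by 0.15 (adjusted p = 0.41) and Slc1a5 by −0.10 (adjusted p = 0.699), and both overlapped. The sign of Slc1a5 turned without KO mouse 2 (0.054) and that of Slc38a1 without control mice 1 and 3 (−0.10), again with no call.

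The neutral amino acid carriers that rose belonged to other families. Slc6a19 (B0AT1), known for absorbing neutral amino acids in gut and kidney, read 6.88, 7.05, 6.77 and 6.68 in control and 8.43, 8.0, 7.96 and 7.88 in KO skin, 2.33-fold higher (1.22 ± 0.13, adjusted p = 2.99e-05) without overlap. Slc1a4 (ASCT1), which carries alanine, serine and cysteine, ran from 7.98 to 8.21 in control and from 8.38 to 8.58 in KO skin, a rise of 0.40 (adjusted p = 0.00158). Slc6a15, a carrier of branched-chain amino acids, and its relative Slc6a17 were detected in all KO mice and in no control mouse. They were at least 1.18-fold and at least 1.39-fold higher, so that both stayed close to the lower edge of detection. Their fitted changes, which are no bounds, were 0.70 (adjusted p = 3.21e-05) and 0.76 (adjusted p = 7.93e-05). The proline carrier Slc6a7 (−0.31), Slc38a4 (−0.27) and Slc38a11 (0.07) were not called, with adjusted p from 0.1 to 0.74.

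Genes placed in the class of cationic amino acid carriers, which includes exchangers of cationic for neutral amino acids, were mostly lower. Of 9 genes 5 were tested, none was higher, 4 were lower and 1 was not called, with a median of −0.62. The share called was 80%, against 63.8% of all tested genes. Slc7a2 (CAT2), an importer of arginine, lysine and ornithine, read 7.28, 7.19, 7.11 and 7.19 in control and 6.30, 6.31, 5.97 and 6.29 in KO skin, 1.96-fold lower (−0.97 ± 0.09, adjusted p = 1.25e-05). Slc7a4, a relative in the same family, read 7.08, 6.76, 6.66 and 6.63 in control and 6.17, 6.03, 5.92 and 5.73 in KO skin (−0.82 ± 0.13, adjusted p = 0.000331). No KO mouse of either gene reached the lowest control mouse.

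Slc7a6 and Slc7a7 (y+LAT2 and y+LAT1) exchange cationic for neutral amino acids and were also lower. Slc7a6 read 8.01, 8.53, 7.97 and 7.93 in control and 7.59, 7.53, 7.33 and 7.51 in KO skin, with control mouse 2 above the rest (−0.62 ± 0.13, adjusted p = 0.00278). Slc7a7 ran from 6.77 to 7.56 in control and from 6.35 to 6.65 in KO skin (−0.60 ± 0.16, adjusted p = 0.00745), but its dimmer probe changed by −0.19 and was not called (adjusted p = 0.485). Slc7a3 changed by −0.32 (adjusted p = 0.0963), and Slc7a1 (CAT1), the ubiquitous arginine importer, was detected on at most 1 array and was not tested. Among the 14 higher and 16 lower genes whose promoters were searched, Slc7a7 was the only gene besides Slc7a11 with this element in the 250 bases before a start, and the 60 bases around each match are shown for that contrast of direction (chr14:54418056-54418115 and chr14:54417893-54417952, minus strand, GRCm38.p6, RefSeq, from separate starts).
Slc7a7, start 1: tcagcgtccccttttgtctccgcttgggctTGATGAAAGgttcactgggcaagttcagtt
Slc7a7, start 2: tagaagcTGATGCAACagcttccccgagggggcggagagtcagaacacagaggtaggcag

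**Figure D2:**
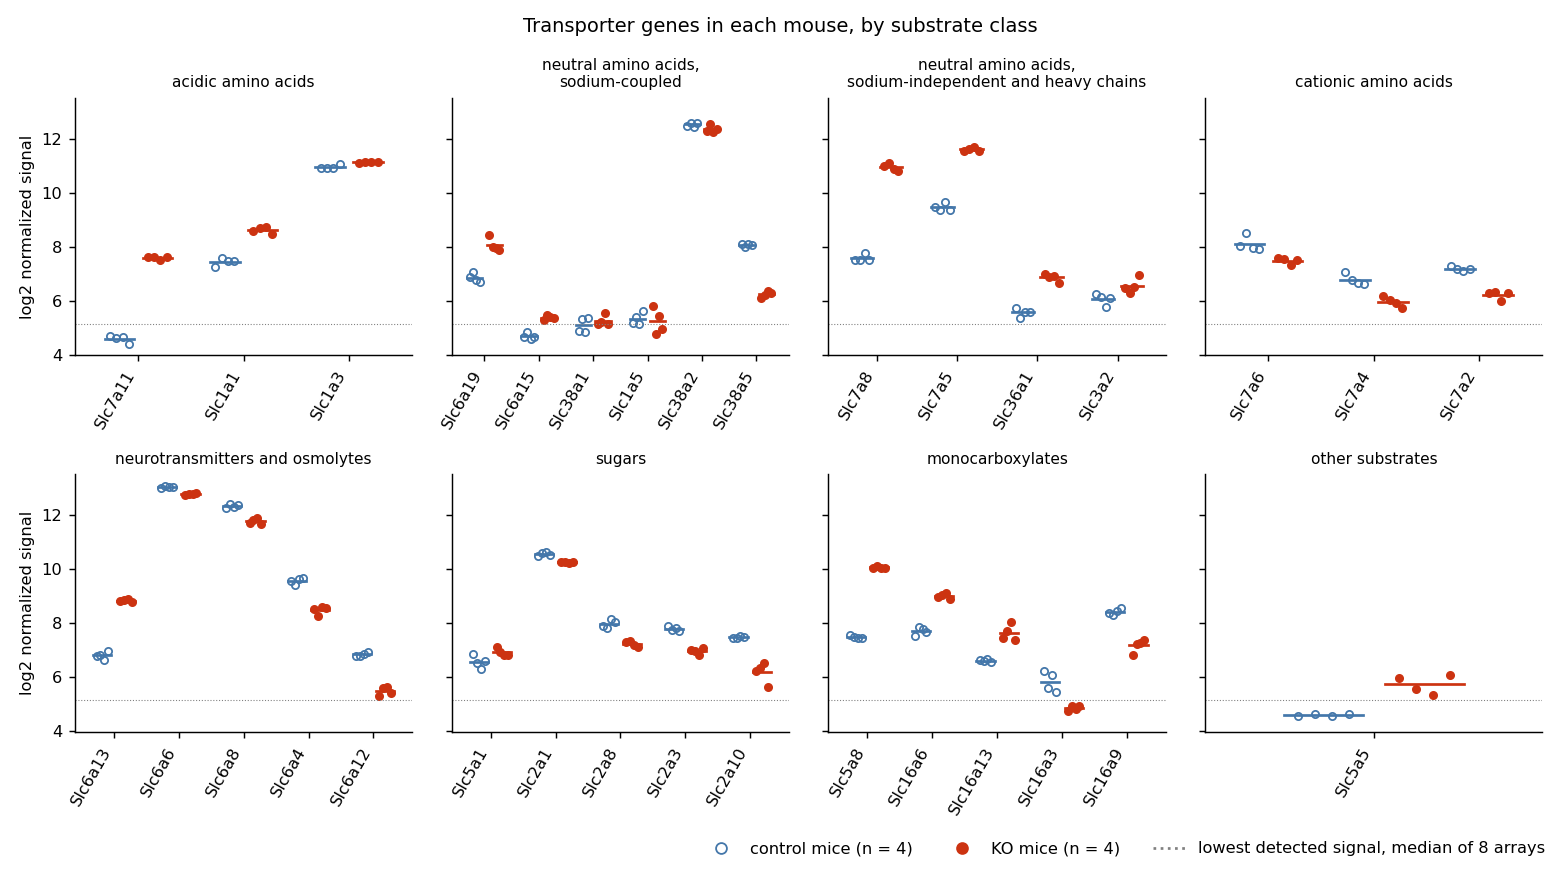
Log2 normalized signal (y axis) of the named transporter genes in each mouse, by substrate class. Open blue circles are the 4 control mice, filled red circles the 4 KO mice, and horizontal bars the group means. The dotted line is the lowest signal of a detected probe, as the median of the 8 arrays, and levels of different genes come from different probes and are not comparable. Slc7a8 runs from 7.50 to 7.78 in control and from 10.81 to 11.11 in KO mice, and Slc38a5 lies lower in all 4 KO mice.

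Carriers of neurotransmitters and osmolytes were lower with a single exception. All 8 tested genes of 15 were called, 1 higher and 7 lower, where 63.8% of all tested genes were called. No KO and control mice overlapped for any of these 8 genes, where 60.1% of all tested genes had no overlap. The median was −0.83. Slc6a13 (GAT2), which takes up GABA and taurine, was the exception. It read 6.80, 6.82, 6.65 and 6.97 in control and 8.82, 8.85, 8.90 and 8.80 in KO skin, 4.09-fold higher (2.03 ± 0.08, adjusted p = 4.05e-08). Slc6a12 (BGT1), which takes up betaine and GABA, read 6.80, 6.80, 6.85 and 6.94 in control and 5.32, 5.61, 5.65 and 5.42 in KO skin, 2.55-fold lower (−1.35 ± 0.09, adjusted p = 1.09e-06). Slc6a12 and Slc6a13 are neighbours on chromosome 6, with 0 protein-coding genes between them in the RefSeq annotation of GRCm38.p6, and they moved in opposite directions.

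Among the monoamine carriers, Slc6a4, the serotonin transporter, read 9.55, 9.42, 9.64 and 9.68 in control and 8.55, 8.29, 8.60 and 8.58 in KO skin, 2.09-fold lower (−1.06 ± 0.09, adjusted p = 8.15e-06). Slc6a2, the noradrenaline transporter, fell by 0.89 (adjusted p = 1.47e-05). The carriers of osmolytes, creatine and glycine were lower too. Slc6a8, the creatine transporter, read 12.29, 12.42, 12.30 and 12.37 in control and 11.71, 11.81, 11.92 and 11.67 in KO skin (−0.56 ± 0.08, adjusted p = 0.000151), and Slc6a6, the taurine transporter, read 13.00, 13.08, 13.04 and 13.05 in control and 12.76, 12.78, 12.78 and 12.83 in KO skin (−0.25 ± 0.06, adjusted p = 0.00508). The glycine transporter Slc6a9 fell by 0.78 (adjusted p = 1.86e-05) and the myo-inositol carrier Slc2a13 by 1.0 (adjusted p = 1.39e-05).

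Sugar carriers were mostly lower. Of 14 genes 8 were tested, 1 was higher, 6 were lower and 1 was not called, with a median of −0.50. The share called was 87.5%, against 63.8% of all tested genes. Slc2a1 (GLUT1), the main glucose carrier of keratinocytes, read 10.51, 10.61, 10.64 and 10.53 in control and 10.28, 10.25, 10.23 and 10.27 in KO skin. The decrease was small, 1.24-fold (−0.31 ± 0.06, adjusted p = 0.00195), but no KO mouse reached a control mouse. Slc2a3 (GLUT3), a high-affinity glucose carrier, read 7.89, 7.75, 7.82 and 7.71 in control and 6.99, 6.98, 6.81 and 7.08 in KO skin, 1.77-fold lower (−0.83 ± 0.08, adjusted p = 1.53e-05).

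Slc2a10 (GLUT10), a carrier of glucose and dehydroascorbic acid inside the cell, had the largest decrease of this class. It read 7.45, 7.45, 7.52 and 7.49 in control and 6.25, 6.34, 6.54 and 5.65 in KO skin, 2.43-fold lower (−1.28 ± 0.16, adjusted p = 9.68e-05), with KO mouse 4 the lowest. Its other probe fell by 0.65 (adjusted p = 0.0237). The intracellular carrier Slc2a8 (GLUT8) read 7.90, 7.83, 8.16 and 8.04 in control and 7.32, 7.34, 7.20 and 7.11 in KO skin (−0.74 ± 0.09, adjusted p = 8.73e-05), and a dim second probe changed by −0.28 and was not called (adjusted p = 0.102). Slc5a9, a sodium-coupled sugar carrier, fell by 0.57 (adjusted p = 0.000111) and the urate carrier Slc2a9 by 0.43 (adjusted p = 0.0123). The exception was Slc5a1 (SGLT1), which imports glucose and galactose with sodium. It read 6.85, 6.52, 6.30 and 6.60 in control and 7.13, 6.95, 6.83 and 6.81 in KO skin (0.37 ± 0.12, adjusted p = 0.0263), the groups overlapped, and the call was lost without control mouse 2 or 3 or KO mouse 1 or 2 (adjusted p up to 0.0726). Slc2a6 changed by 0.32 and was not called (adjusted p = 0.109).

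Monocarboxylate carriers differed in both directions and by large amounts. Of 11 genes 5 were tested and all 5 were called, 3 higher and 2 lower, with a median of 1.03, where 63.8% of all tested genes were called. Of the 4 genes detected in both groups, 3 were higher and 1 was lower. Slc5a8 (SMCT1), which imports lactate, butyrate and other short-chain acids with sodium, had the largest change in this class by the brightest probe of each gene. It read 7.55, 7.50, 7.46 and 7.46 in control and 10.05, 10.13, 10.06 and 10.06 in KO skin, 5.99-fold higher (2.58 ± 0.06, adjusted p = 1.9e-09). Its promoter is shown as that of the carrier outside the Slc7 family with the largest rise by that measure (250 bases before the start, chr10:88885742-88885991, plus strand, GRCm38.p6, RefSeq), and the capitals mark 3 GC boxes, which read CCGCCC on this strand.
Slc5a8: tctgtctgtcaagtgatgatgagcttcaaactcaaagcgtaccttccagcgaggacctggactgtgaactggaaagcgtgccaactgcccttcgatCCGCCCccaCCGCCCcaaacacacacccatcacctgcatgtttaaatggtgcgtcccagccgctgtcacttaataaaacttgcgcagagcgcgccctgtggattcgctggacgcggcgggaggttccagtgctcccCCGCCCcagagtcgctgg

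Slc16a6 (MCT7), known in zebrafish for exporting ketone bodies from liver, read 7.54, 7.87, 7.78 and 7.66 in control and 8.97, 9.05, 9.12 and 8.89 in KO skin, 2.45-fold higher (1.29 ± 0.09, adjusted p = 1.79e-06). Its other probes rose by 1.42 (adjusted p = 0.000456) and 2.64 (adjusted p = 1.13e-06), so all 3 moved the same way. Slc16a13 (MCT13) read 6.63, 6.60, 6.69 and 6.55 in control and was more spread in KO skin, at 7.45, 7.71, 8.03 and 7.39 (1.03 ± 0.13, adjusted p = 0.000105). Slc16a9 (MCT9), known in humans as a carnitine carrier, read 8.37, 8.31, 8.46 and 8.57 in control and 6.83, 7.25, 7.27 and 7.39 in KO skin, 2.37-fold lower (−1.24 ± 0.12, adjusted p = 1.7e-05).

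Slc16a3 (MCT4), which exports lactate from glycolytic cells, was detected in all control mice (6.21, 5.60, 6.09 and 5.47) and was not well above background in any KO mouse (4.74, 4.93, 4.82 and 4.92). By this probe the decrease was at least 1.59-fold (adjusted p = 0.000476). A dimmer Slc16a3 probe changed by −0.06 (adjusted p = 0.753), and its groups overlapped. Slc16a1 (MCT1), the widespread lactate carrier, was detected on 0 arrays, as were Slc16a7 and Slc16a8. For these genes no difference was detectable on this array.

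**Figure D3:**
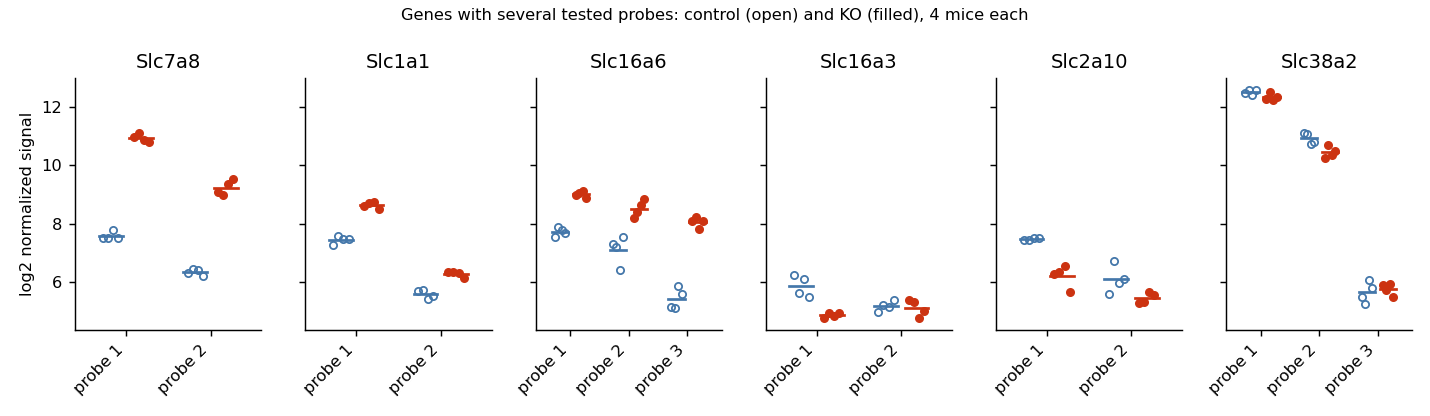
Log2 normalized signal (y axis) of each tested probe of 6 genes that had more than 1, from the brightest (probe 1) to the dimmest. Open blue circles are the 4 control mice, filled red circles the 4 KO mice, and bars the means. All probes of Slc7a8, Slc1a1 and Slc16a6 are higher in KO mice, whereas the second probe of Slc16a3 (−0.06) and the third of Slc38a2 (0.10) show no separation.

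The remaining members carry other substrates. Slc5a5, the iodide importer of the thyroid, was detected in all KO mice (5.97, 5.57, 5.34 and 6.07) and in no control mouse, at least 1.52-fold higher (adjusted p = 0.000117). Slc5a6, the carrier of biotin and pantothenate, changed by −0.22 and was not called (adjusted p = 0.088). The rule also took in Slc7a6os, a gene next to Slc7a6 that encodes no transporter, and it changed by −0.01 (adjusted p = 0.897). Of the 33 members that were not tested, 30 were detected on no array and 3 on 1 to 3 arrays. They include carriers known from other organs, such as Slc2a2 of liver and pancreas, Slc5a2 of kidney and the dopamine transporter Slc6a3.

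RefSeq promoters (GRCm38.p6) were matched for 68 of the 90 member genes, and the 250 bases before each start were searched on both strands. A gene with several starts counts as holding a motif if any of them does. The promoters of 12 called genes, Slc7a5 among them, were not searched. The element TGATGNAAN was present in 3.44% of all 32851 promoters (3.89% of 27025 genes), in 3 of the 68 member genes and, among called genes with a promoter, in 1 of 14 higher genes (Slc7a11) and 1 of 16 lower genes (Slc7a7). The E-box CACGTG was present in 6.02% of all promoters (6.86% of genes), in 10 of the 68 member genes, in 2 higher genes (Slc36a1, Slc5a1) and in 2 lower genes (Slc38a5, Slc38a7). TGACNNNGC, the core of the antioxidant response element, was present in 10.2% of all promoters (11.5% of genes), in 8 of the 68 member genes, in 1 higher gene (Slc6a13) and in 2 lower genes (Slc6a9, Slc7a6). The GC box GGGCGG was present in 32.7% of all promoters (35.4% of genes), in 44 of the 90 member promoters (48.9%) and in 40 of the 68 member genes (58.8%), called or not. Among the called genes 9 of the 14 higher and 12 of the 16 lower held it. A match is a string of letters in a window and was not tested as a binding site. Promoters of higher and lower genes both held each motif.

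Lists of genes that act with the transporters were set beside all tested genes, of which 63.8% were called (29.4% higher and 34.4% lower). Of 7 tested partners and regulators of carriers, 2 were higher and 4 were lower (85.7% called), with a median of −0.31. Txnip, an arrestin that removes glucose carriers from the membrane and is itself induced by glucose, read 13.04, 12.95, 13.11 and 12.92 in control and 11.67, 11.81, 11.77 and 11.73 in KO skin (−1.26 ± 0.07, adjusted p = 4.03e-07). Its relative Arrdc4 moved the other way, from 9.88, 9.78, 9.76 and 9.90 to 10.85, 10.69, 10.87 and 10.75 (0.96 ± 0.07, adjusted p = 2.99e-06). The kinase Wnk1 fell by 0.70 (adjusted p = 8.65e-05) and the ubiquitin ligase Nedd4l, which retrieves carriers from the membrane, by 0.47 (adjusted p = 0.00167).

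Cells induce ATF4 and amino acid response genes when amino acids are short. In this list 20 genes were tested, 10 were higher and 7 were lower (85% called, against 63.8% of all tested genes). The median was 0.20. Of the 18 genes detected in both groups, 9 were higher and 6 were lower. Chac1, which degrades glutathione, read 10.70, 10.70, 10.67 and 10.70 in control and 12.71, 12.87, 12.73 and 12.87 in KO skin, 4.29-fold higher (2.10 ± 0.07, adjusted p = 1.19e-08). Cth, which makes cysteine from cystathionine, was detected only in KO skin, at least 1.93-fold higher (adjusted p = 1.17e-06). The serine synthesis gene Phgdh rose by 1.35 (adjusted p = 1.64e-05) and asparagine synthetase Asns by 0.76 (adjusted p = 8.5e-05). The members that fell included the stress-induced factors Atf3 and Ddit3. Atf3 read 8.33, 8.39, 8.27 and 8.07 in control and 6.22, 5.86, 6.55 and 6.54 in KO skin (−1.98 ± 0.15, adjusted p = 3.22e-06), and Ddit3 fell by 1.21 (adjusted p = 1.6e-06). Vldlr, Stc2, Nupr1 and Atf5 fell by 1.45, 0.89, 0.72 and 0.61 (adjusted p from 5.45e-06 to 0.000285). Trib3, also called lower, was not well above background in any KO mouse. Atf4 itself rose by 0.16 (adjusted p = 0.0466).

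A list for amino acid sensing by the growth kinase complex mTORC1 had 19 tested genes, among them Mtor, Rheb, Tsc1 and Tsc2. Of the 19 genes, 2 were higher, 8 were lower and 9 were not called. That is 52.6% called, below the 63.8% of all tested genes, and the median was −0.12. Of the 18 genes detected in both groups, 2 were higher and 7 were lower. Rragd, a GTPase that recruits mTORC1 to lysosomes, read 8.85, 8.82, 8.78 and 8.65 in control and 6.61, 6.86, 6.49 and 6.31 in KO skin, 4.61-fold lower (−2.20 ± 0.12, adjusted p = 2.4e-07). Rragb, another of these GTPases, was not well above background in any KO mouse and was at least 1.64-fold lower (adjusted p = 6.43e-06). Flcn fell by 0.68 (adjusted p = 1.24e-05) and Fnip1 by 0.98 (adjusted p = 2.28e-05). The leucine sensor Sesn2 rose by 0.87 (adjusted p = 4.48e-05), and Mtor changed by 0.27 (adjusted p = 0.0501).

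In the first and last steps of glucose use, 8 genes were tested, 1 was higher and 5 were lower. That is 75% called, against 63.8% of all tested genes, and the median was −0.65. Pdk4, the kinase that blocks entry of pyruvate into the citric acid cycle, read 12.21, 12.25, 12.05 and 12.12 in control and 9.48, 9.65, 9.36 and 9.46 in KO skin, 6.36-fold lower (−2.67 ± 0.08, adjusted p = 9.67e-09). Pyruvate kinase Pkm fell by 0.98 (adjusted p = 3.65e-06) and lactate dehydrogenase Ldha by 0.80 (adjusted p = 9.88e-06). Pdha1 fell by 0.66 (adjusted p = 1.96e-05) and hexokinase Hk2 by 0.65 (adjusted p = 4.15e-05). The related kinase Pdk1 rose by 0.32 (adjusted p = 0.00422).

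**Figure D4:**
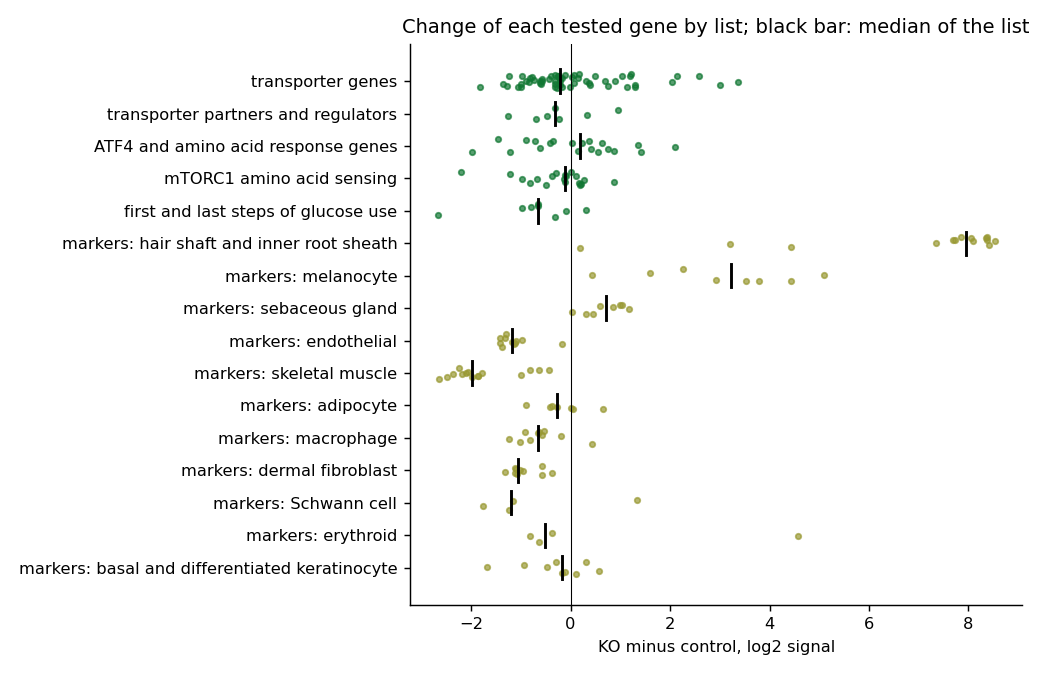
Change of each tested gene, KO minus control on the log2 scale (x axis), for the transporter genes, the lists of related genes (green) and the cell type marker lists (olive); each point is a gene, black bars are list medians, and vertical jitter has no meaning. The transporter median is −0.21, the hair marker median is 7.95 and the skeletal muscle marker median is −1.98.

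Markers of other cell types differed between the groups along with these carriers. For comparison, 29.4% of all tested genes were higher and 34.4% were lower. All 14 tested genes of the hair shaft and inner root sheath were higher in KO skin, with a median of 7.95 (7.89 with genes undetected in control at their bound). The filter let in 3 of them only through KO skin, and all 11 detected in both groups were higher. The summed level of the 14 genes was 40.1 times that of control (4505 to 6580 in control and 216128 to 221430 in KO mice, linear normalized signal). Gata3, which rose by 0.20 on the log2 scale, made up 3954 to 4360 of the control sum, and the sum of the other 13 genes was 165 times that of control (499 to 2220 against 211474 to 216627). Melanocyte markers were higher for 7 of 8, with a median of 3.23 (3.01 with bounds, summed level 828 to 959 against 10536 to 11299). The filter let in 2 melanocyte markers only through KO skin, and 5 of the 6 detected in both groups were higher. Sebaceous gland markers were higher for 7 of 8 (25979 to 27839 against 35714 to 39785). Markers of dermal fibroblasts were lower for 10 of 10 (102576 to 110393 against 61313 to 69664), skeletal muscle for 15 of 15 (285022 to 289969 against 117267 to 122284), endothelium for 10 of 11 (13412 to 14288 against 5840 to 6254) and macrophages for 9 of 10, with 1 higher (34079 to 34503 against 23273 to 24212). Adipocyte markers were lower for 4 and higher for 1 of 7 (23728 to 25199 against 18684 to 19412), with Fabp4 and Retn undetected. Keratinocyte markers were higher for 2 and lower for 4 of 9 (161690 to 168077 against 129913 to 135201), Schwann cell markers higher for 1 and lower for 3 of 4 (10694 to 11966 against 6555 to 7343), and erythroid markers likewise for 1 and 3 of 4 (7595 to 8699 against 5296 to 6400). Krt15 (−1.68), Col17a1 (−0.94), Lor (−0.48) and Krt5 (−0.30) fell, Ivl (0.57) and Trp63 (0.31) rose, and Krt1, Krt10 and Krt14 were not called. In the erythroid list Slc4a1 rose by 4.57, whereas Hba-a1, Hbb-bt and Alas2 fell by 0.63, 0.82 and 0.38. Krt25, Fasn and Hbb-b2 were the undetected members of the hair, sebaceous and erythroid lists. In such whole-skin RNA fewer cells of a type and less RNA per cell cannot be told apart, and the part of these shifts in the transporter changes was not tested. The study describes KO skin at 10 weeks as abnormally shifted to anagen, the follicle's growth phase, with control skin in telogen, its resting phase. Genotype and hair cycle stage therefore cannot be told apart here, and the part of the stage was not tested.

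Control mice 1 and 3 stood apart from control mice 2 and 4 in some hair genes. Krt27, for example, read 9.58 and 9.36 against 5.56 and 5.69, and 14.81 to 15.05 in KO skin. Other hair genes, such as Hoxc13 (6.63, 6.52, 6.95 and 6.74 in control mice 1 to 4) and Gata3, did not split this way. Without control mice 1 and 3, 17 transporter genes were higher and 22 were lower. In that fit 43.6% of the called transporter genes and 48.4% of all called probes were higher. These counts are given without the share of all genes called in that fit, so they do not set the transporters apart. Across arrays 14593 to 15149 probes were detected, and log2 signals correlated at 0.991 to 0.993 between mice of the same genotype and at 0.908 to 0.916 between genotypes.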

How the data were processed

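Total RNA of whole back skin was hybridized to an Illumina mouse bead array, 1 mouse per array (4 control, 4 KO). The authors deposited linear raw bead intensities that had not been corrected for background, each with a detection p-value. GenomeStudio 2011.1 is named in the submitters' processing notes. Normalized intensities, likewise deposited, were used as an alternative after raising values to a floor of 16.

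Raw intensities were corrected with neqc (offset 16, background inferred from the detection p-values) and quantile normalized in limma 3.58.1 under R 4.3.3; the offset pulls changes of dim probes toward 0. The 15120 probes with detection p below 0.05 on at least 4 of 8 arrays were fitted for genotype with lmFit and eBayes, without a covariate. P-values were adjusted over them by the Benjamini-Hochberg method at 0.05. The number of arrays limits the precision.

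Probes were named through the platform annotation and updated to RefSeq symbols of GRCm38.p6; all 126 member probes matched. The brightest tested probe stood for a gene. Where no array of a group had a gene above background, only a bound was given, written as at least N-fold: the mean of the brighter group against, for the dimmer one, the mean over arrays of the larger of 2 signals, that of the faintest detected probe and that of the probe itself. The adjusted p printed with a bound belongs to the fitted change.

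Named genes are, in each class, called genes of at least 2-fold change and the 3 called genes of smallest adjusted p, a fixed set of well-known carriers, and up to 4 genes of smallest adjusted p of each list; others were named after their values were seen. Members and lists were chosen with earlier results of these data known. Alternatives covered background correction, scaling, the detection filter, variance estimation, a replicate block, the methods' t-test, the mean over probes and leaving out mice.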

Additional observations from a re-analysis of the deposited data

Results flagged for a closer look

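In 7 of 70 groups of 4 mice checked, 1 mouse lay far from the other 3, where chance alone flags about 1 in 20 groups. Control mouse 3 read 7.78 for Slc7a8, with the others between 7.50 and 7.50. Control mouse 4 read 11.05 for Slc1a3, with the others between 10.91 and 10.93, and control mouse 2 read 8.53 for Slc7a6, with the others between 7.93 and 8.01. KO mouse 2 read 10.13 for Slc5a8, with the others between 10.05 and 10.06. KO mouse 3 read 7.52 for Slc7a11 (others 7.61 to 7.62), 5.97 for Slc7a2 (others 6.29 to 6.31) and 5.54 for Slc38a1 (others 5.14 to 5.21). The KO and control mice did not overlap for these genes, apart from Slc38a1.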

How the results depend on the processing

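Over all settings, 635 values were recomputed for 32 named transporter genes; 609 kept their direction and side of the threshold, 20 were no longer called, 4 became called and 2 turned sign. For 25 of the genes nothing changed under any setting. Transporter genes called numbered 14 to 18 higher and 20 to 26 lower (16 to 18 and 23 to 26 when 1 mouse was left out). The background moved as well. Over the settings fitted by probe, 3431 to 4810 of all probes were called higher and 3546 to 4974 lower. When 1 mouse was left out these were 4385 to 4464 and 4634 to 4702. The turned signs were uncalled: Slc1a5 without KO mouse 2 (0.054, in a range of −0.29 to 0.054 when 1 mouse was left out) and Slc38a1 without control mice 1 and 3 (−0.10), a setting chosen after seeing the data. The heavy chain Slc3a2, 1 called gene, became 0 under the methods' t-test after Benjamini-Hochberg adjustment (adjusted p = 0.0523), 0 under that test at an unadjusted p below 0.005, and 0 without control mice 1 and 3. Called carriers of other substrates, 1, became 2 without background correction and 0 under the stricter detection filter (p below 0.01), where Slc5a5 is no longer tested, and ranged from 1 to 2 when 1 mouse was left out (2 without KO mouse 2). Called cationic carriers, 4, became 2 at an unadjusted p below 0.005. Slc1a3 also lost its call without a detection filter (adjusted p = 0.0586), and Slc38a2 was called without background correction (adjusted p = 0.0448), with a variance trend and robust estimation (adjusted p = 0.0237) and as a mean over probes (adjusted p = 0.0314). With the replicate number as a block, 17 transporter genes were higher and 24 were lower, and Slc1a3 was no longer called (adjusted p = 0.0877). In that fit 41.5% of the called transporter genes and 48.6% of all called probes were higher. Deviations of same-numbered mice correlated at −0.11 to 0.06, and those of differently numbered mice at −0.09 to 0.09. These values show no pairing by number, but so few mice cannot exclude it.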
